A study of Rosa hybrid cultivar with 12 samples.

Results

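The genes described here had a lower transcript level in rose buds at 100 mM than at 10 mM sucrose, while adding auxin left their average level little changed. They numbered 78 of the 42307 genes listed in each file. They were chosen by measured values, as log2(CPM + 0.5), where CPM is a gene's count scaled to a common library size. The sucrose difference is the level at 100 mM minus that at 10 mM, and the auxin difference is the level with NAA minus that without it, each taken between libraries of the same replicate number. Each gene therefore had 6 differences of each kind. A member had a mean of 2 to 700 CPM over the 12 libraries, a mean sucrose difference of -0.8 or lower with all 6 below 0, and a mean auxin difference within 0.4 of 0. The fall with sucrose and the small average auxin difference are thus the choice itself and not findings.

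The RNA came from wild-type rose of a hybrid cultivar. The tissue label reads flower bud, while the series is titled for budburst, so the kind of bud is not settled. Sucrose was given to all 12 libraries, at 10 mM to 2 groups and at 100 mM to the other two. One group of each dose also received the synthetic auxin NAA at 1 µM, and each group held 3 libraries by the sample titles, whereas the series text speaks of 2 biological replicates. Every SD below, and every SE and p-value of a treatment effect, takes the 3 as replicates. Replicate 1 was harvested in June, replicate 2 in August and replicate 3 in October, per the labels. A test between dates has 1 library per treatment and date, so its SE and p-value take the treatments as replicates of a date. The labelled planting date differed between all groups within the June set, so planting date and treatment cannot be told apart there. It fell after the labelled harvest for 2 June groups and for all August libraries, and on the harvest day for all October libraries. The labelled dates of all 3 sets are therefore in doubt, and June, August and October below are names of replicate sets as labelled.

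Sugars serve bud growth as fuel, as carbon for new cell walls and as a signal. High sugar supply commonly represses genes that plants use when carbon is short, such as those for breaking down amino acids and storage compounds. Auxin made in the shoot tip holds lateral buds back, and in rose, sugar is known to counter this. A gene that responds to sugar and not to auxin is of interest because the known routes of both signals in buds overlap. The files pair no gene ID with a name or function, so the members are given by ID, no pathway can be named, and the labelled tissue could not be checked against markers.

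Gene counts per library ran from 7369267 to 16757019. Replicate 1 of 10 mM sucrose with auxin, a June library, stood apart: its 100 most counted genes held 24.9% of its counts, against 14.1% to 16.9% elsewhere, and its TMM scaling factor was 0.745, against 0.976 to 1.10. The members had 304 to 70633 counts each over all libraries (median 2788), and all 78 passed the low-count filter that left 24267 genes for testing. In bulk RNA, fewer cells of a type and less RNA per cell cannot be told apart, which holds for every level below. The labels do not say that libraries came from separate plants, so p-values measure the spread between these libraries.

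Few of the genes that sucrose lowered were flat for auxin. Of 19264 genes in the same level range, 688 met both sucrose conditions, and 78 of these (11.3%) had a mean auxin difference within 0.4 of 0. Another 148 lay between that range and 0.8 and 450 above 0.8, while 9 lay between the range and -0.8 and 3 below -0.8. Among all genes of the level range, 64.7% were within 0.4. Sucrose and auxin differences share libraries, so these shares are a description. Of the 688 genes, 656 had a mean auxin difference above 0 and 32 below it. Within the limits of the choice the members, too, were not centred on 0. Their mean auxin difference ran from -0.37 to 0.39 with a median of 0.22, and it was above 0 in 58 members and below 0 in 20. At the auxin limit, the member nearest to it had an absolute difference of 0.390 and the nearest gene beyond it 0.401. At the sucrose limit, gene:RC4G0381600 was the last gene inside, with a mean sucrose difference of -0.81, and gene:RC2G0657300 the first outside, with -0.79.

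**Figure D1:**
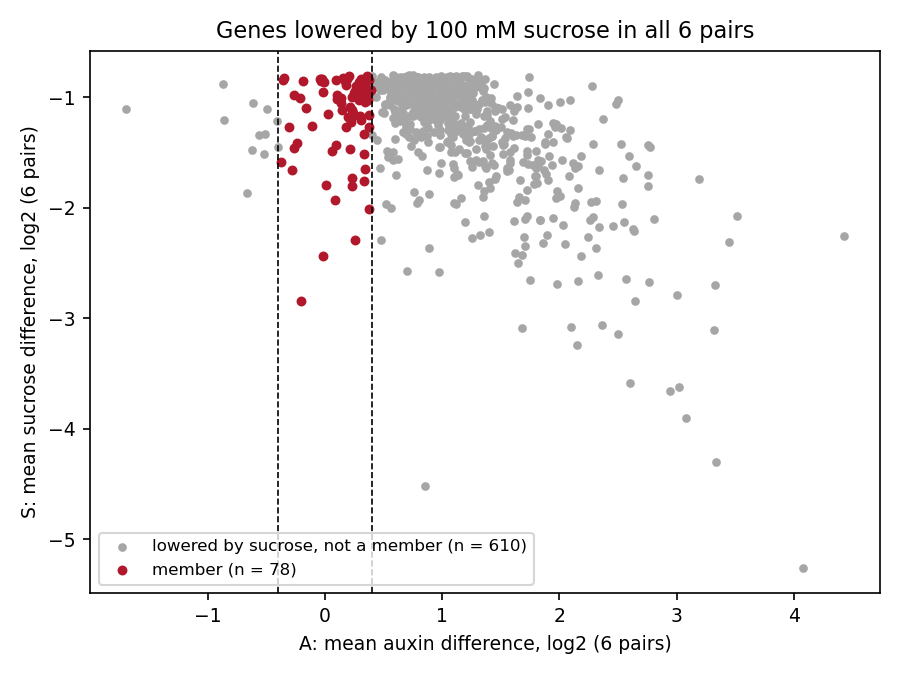
Mean sucrose difference (vertical axis, log2) against mean auxin difference (horizontal axis, log2) of the 688 genes that met both sucrose conditions, with 1 point per gene. The 78 members, in red between the dashed lines at -0.4 and 0.4, lie at the left edge of a cloud that extends to the right, with 450 genes beyond 0.8.

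The members covered a wide range of levels without being unusual in it. Their mean level ran from 2.18 to 457.1 CPM with a median of 19.1 CPM, against a median of 17.4 CPM over the level range. Without auxin they together took 0.437% ± 0.0660 of a library's gene counts at 10 mM and 0.183% ± 0.0135 at 100 mM. With auxin the shares were 0.460% ± 0.0271 and 0.225% ± 0.0579 (SD, n = 3). The order of the group means was 10 mM with auxin, 10 mM alone, 100 mM with auxin, 100 mM alone for 48 members. Another 13 had the auxin groups exchanged at 10 mM, 12 had them exchanged at 100 mM, and 5 at both doses. The sucrose doses were never exchanged, which the choice required.

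**Figure D2:**
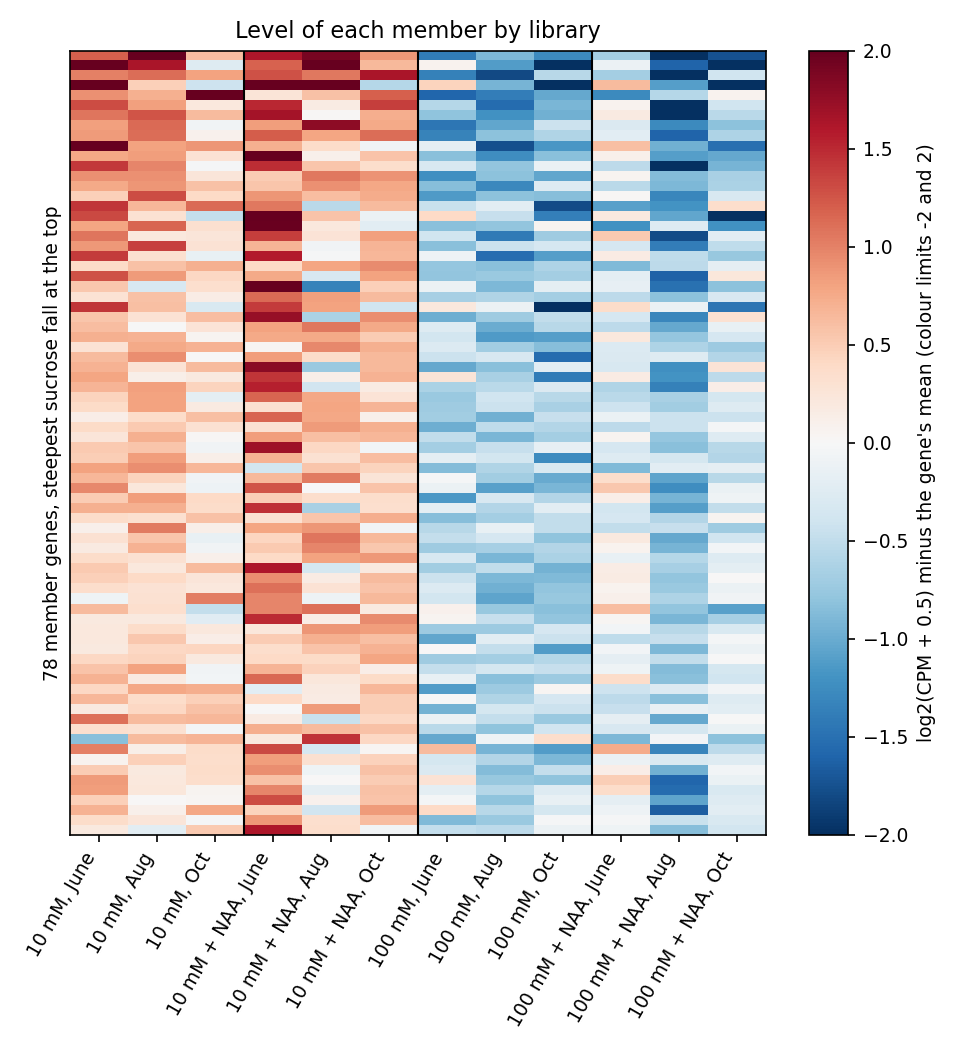
Level of each of the 78 members (rows, ordered by mean sucrose difference) in each of the 12 libraries (columns, by treatment and harvest date), as log2(CPM + 0.5) minus the gene's own mean, with colours ending at -2 and 2. The 6 libraries at 10 mM are mostly red and the 6 at 100 mM mostly blue, with the darkest red most often in 10 mM with NAA in June and the darkest blue most often in 100 mM with NAA in August.

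The mean sucrose difference ran from -2.84 to -0.81 with a median of -1.02, which is a level 1.75-fold to 7.16-fold lower at 100 mM with a median of 2.03-fold. It was -1 or lower in 42 members. The steepest fall was that of gene:RC2G0584000. At 10 mM sucrose it stood in June, August and October at 40.4, 88.8 and 26.8 CPM without auxin and at 54.0, 65.6 and 32.0 CPM with it. At 100 mM the same dates gave 6.27, 9.08 and 6.98 CPM without auxin and 10.6, 2.5 and 4.83 CPM with it. The lowest library at 10 mM thus lay above the highest at 100 mM, and the auxin groups overlapped at both doses.

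The next steepest, gene:RC5G0508300, did not separate the doses as cleanly. At 10 mM sucrose its levels in date order were 16.8, 12.6 and 3.06 CPM alone and 9.12, 17.9 and 6.14 CPM with auxin. At 100 mM they were 3.96, 1.46 and 0.374 CPM alone and 3.44, 0.899 and 0.386 CPM with auxin. Its October libraries were the lowest of each treatment, and the October library of 10 mM alone lay below the June libraries of both groups at 100 mM. The mean sucrose difference was -2.44 and the mean auxin difference -0.02.

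The most abundant members were gene:RC6G0114600 and gene:RC5G0646100, with mean sucrose differences of -1.51 and -0.86. For gene:RC6G0114600 the 10 mM libraries held 738.9, 737.0 and 460.0 CPM alone and 555.1, 814.9 and 731.2 CPM with auxin, in date order. The 100 mM libraries held 167.4, 221.3 and 190.2 CPM alone and 405.6, 213.7 and 249.8 CPM with auxin. All libraries at 10 mM were above all at 100 mM, where the June library with auxin was the highest. At 10 mM gene:RC5G0646100 held 496.6, 587.9 and 321.0 CPM alone and 538.7, 462.8 and 367.4 CPM with auxin. At 100 mM it held 241.6, 262.3 and 243.3 CPM alone and 316.2, 183.3 and 263.3 CPM with auxin. The lowest library at 10 mM was just above the highest at 100 mM. Its mean auxin difference was -0.01, yet its 6 auxin differences ran from -0.52 to 0.39.

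In the edgeR quasi-likelihood fit of all 12 libraries, 63 of the 78 members were called lower for the sucrose average at an adjusted p under 0.05, beside 6.91% of all tested genes. Without auxin 21 members were called lower (1.26% of all tested genes) and with auxin 25 (2.12%). With the replicate block these became 77, 53 and 62, beside 11%, 3.46% and 7.69% of all tested genes. In 37 members all 6 libraries at 100 mM lay below all 6 at 10 mM, beside 0.766% of tested genes. The choice used this contrast, so these counts describe the members and nothing is read from them. Without the August libraries the sucrose average was called in 6 members, and without June, August or October at most 6 were called at either auxin level. These fits rest on 2 harvest dates, and their shares of all tested genes are not given here. The lower counts are thus not read as a trait of the members or of August.

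Whether the fall differed with auxin present was not fixed by the choice, although the demand for 6 differences below 0 limits how far it could differ. The median sucrose difference was -1.08 without auxin and -1.03 with it. The fall was steeper with auxin in 38 members and steeper without it in 40. The difference between the falls ran from -1.29 to 1.42 with a median of 0.00. No member was called for the interaction of auxin and sucrose by edgeR, nor was any of the tested genes (0% in each direction). At an unadjusted p under 0.05 there was 1 member with a positive interaction, beside 1.89% of tested genes, and 0 with a negative one, beside 1.55%. DESeq2 called 0 members as well. These misses do not show that the fall was the same with and without auxin.

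The member with an unadjusted p under 0.05 was gene:RC3G0146600. At 10 mM sucrose its levels in date order were 57.3, 49.5 and 132.5 CPM alone and 36.1, 45.2 and 69.3 CPM with auxin, lower with auxin on each date. At 100 mM they were 9.68, 11.2 and 14.5 CPM alone and 12.1, 20.0 and 31.5 CPM with auxin, higher with auxin on each date. The interaction was 1.52 on the log2 scale (SE 0.584, edgeR adjusted p = 0.963). With the replicate block it was 1.38 (edgeR adjusted p = 0.717), while the auxin effect was called at each dose, at -0.60 for 10 mM (edgeR adjusted p = 0.0391) and 0.78 for 100 mM (edgeR adjusted p = 0.0426). The other named positive interaction, of gene:RC3G0063500, was 0.82 (SE 0.409, edgeR adjusted p = 0.963). Its level was 53.3 ± 10.4 CPM without and 31.9 ± 9.26 with auxin at 10 mM, and 22.3 ± 5.01 without and 23.7 ± 8.05 with it at 100 mM (SD, n = 3). The widest gap between the auxin differences at 10 mM and 100 mM was that of gene:RC1G0421200, followed by gene:RC3G0146600. The former, at 0.555 ± 0.586 to 5.07 ± 3.54 CPM (SD, n = 3), had an auxin difference of -0.99 at 10 mM and 0.43 at 100 mM, and an interaction of 2.19 (SE 1.24, edgeR adjusted p = 0.963).

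In the negative direction, 1 library decided the interaction of gene:RC3G0210100, which was -2.77 (SE 1.40, edgeR adjusted p = 0.963). The June library at 10 mM with auxin, which stood apart, held 179.2 CPM, while the other 11 ranged from 3.47 to 15.8 CPM. Without that library the interaction was 0.03 (edgeR adjusted p = 1). For gene:RC2G0220200 the interaction was -1.13 (SE 0.596, edgeR adjusted p = 0.963), from 2.88 ± 0.535 to 5.79 ± 2.74 CPM at 10 mM without and with auxin and from 2.03 ± 0.759 to 1.86 ± 0.842 CPM at 100 mM (SD, n = 3).

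The small average auxin difference was seldom small in each pair. Only 2 members, gene:RC2G0095800 and gene:RC5G0397600, named here after their values were seen, had all 6 auxin differences within 0.4 of 0. That is 2.56% of members, against 22.0% of the 12471 level-range genes with a mean auxin difference within 0.4. The differences of gene:RC5G0397600 ran from -0.25 to 0.19. The gap between the highest and the lowest of the 6 auxin differences had a median of 1.39 in members and 0.85 over the level range. For the 6 sucrose differences this gap was also wider in members, with medians of 1.27 and 0.87. The gap was thus wider in both kinds of difference, but these share libraries, so 1 library can widen both. The level range was not chosen on sucrose and is not a matched background. The source of the wider gap was not tested. In 73 members the 6 differences had mixed signs, in 5 all were above 0 and in 0 all were below. At both doses the median auxin difference was 0.18, with 47 members above 0 at both doses, 7 below 0 at both, 12 above 0 at 10 mM only and 12 at 100 mM only.

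The sign of the auxin difference followed the harvest date. In June the median over members was 0.28 at 10 mM and 0.38 at 100 mM, and in October it was 0.34 and 0.38. In August it was -0.12 and -0.24, with 46 and 50 of the 78 members below 0. Over the level range, all 6 medians lay between -0.02 and 0.02. The August difference, averaged over doses, was the lowest of the 3 dates in 53 members (67.9%), against 33.0% of level-range genes and 29.9% of those with a mean auxin difference within 0.4. Neither background was chosen on sucrose, so neither is matched to the members. The sucrose difference was steepest in August in 49 members, in June in 18 and in October in 11. The choice used these differences, and no share over the level range is given here. The 419 genes lowered by sucrose and raised by auxin, described below, also had their steepest median in August. In date order it was -1.24, -1.44 and -0.95 without auxin and -0.90, -1.55 and -1.36 with it. Scaled by total counts alone, the June median auxin difference at 10 mM was -0.11 in members and -0.39 over the level range. Its sign thus depended on the TMM factor of the library that stood apart, while members stayed above the other genes.

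**Figure D3:**
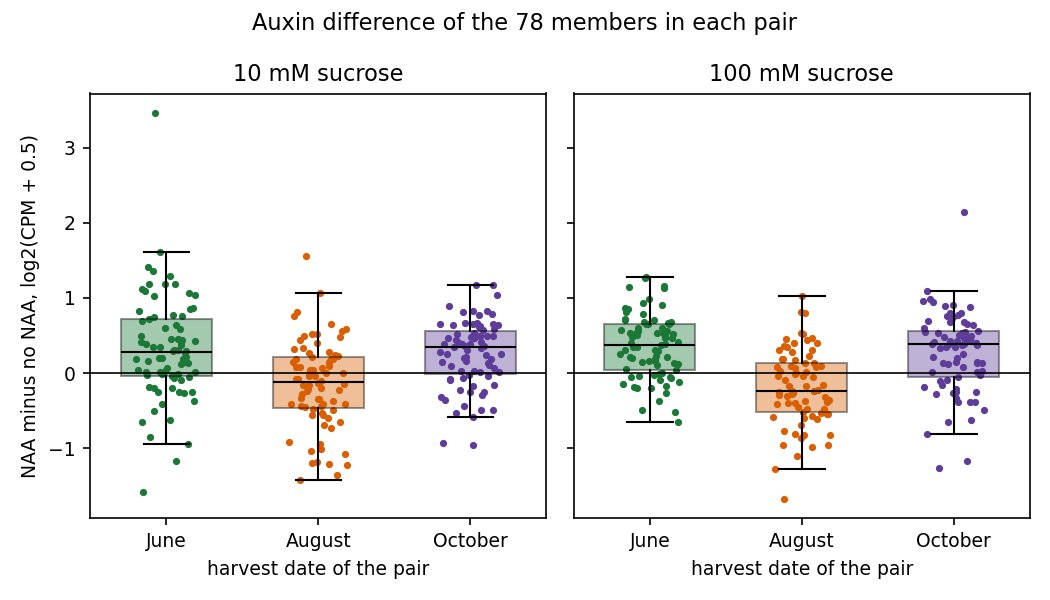
Auxin difference (level with NAA minus level without, log2(CPM + 0.5)) of each of the 78 members, by harvest date and sucrose dose, with points for genes and boxes for quartiles and median (whiskers reach at most 1.5 times the box height). The medians are above 0 in June and October and below 0 in August at both doses.

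A test of the auxin pattern by date was added after the data were seen. One edgeR fit with treatment, harvest date and auxin by date compared the auxin effect in August with the mean of those in June and October. No member was called and no gene of all those tested (0% in each direction). At an unadjusted p under 0.05, 22 of the 78 members had a lower auxin effect in August, beside 2.36% of tested genes, and 0 had a higher one, beside 0.948%. DESeq2 also called 0 members. The median over members was -0.46, against -0.03 over all tested genes, and it was below 0 in 63 members. The choice used auxin differences of the same libraries and held their mean near 0, while most genes lowered by sucrose were higher with auxin. It thus favours genes in which a date offsets the others, so all tested genes are not a matched background. Of the 78 members, 27 were again chosen when August was left out, against 56 for June and 58 for October. For the 35 genes chosen without August, the median August auxin difference was -0.15. There is 1 August harvest, so the pattern describes these harvests. With each library left out in turn, at most 1 member was called, and the median stayed below 0. It moved to -0.28 without the August library of 10 mM alone and to -0.27 without that of 100 mM with auxin.

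For the average auxin effect 1 member was called higher, beside 12.2% of all tested genes, and 0 lower, beside 12.5%, as the choice leads to. It was gene:RC5G0310500, named after its values were seen. Its level was 11.1 ± 1.60 CPM without and 15.2 ± 0.760 with auxin at 10 mM, and 6.29 ± 0.985 without and 7.86 ± 0.720 with it at 100 mM (SD, n = 3). All 6 of its auxin differences were above 0, and the average effect was 0.39 (SE 0.122, edgeR adjusted p = 0.035). With 1 of the libraries left out, the count of members called higher ran from 0 to 5. It was 0 without replicate 3 of 10 mM alone, replicate 2 of 10 mM with auxin, replicate 2 of 100 mM alone or replicate 3 of 100 mM with auxin. At 10 mM, 0 members were called in either direction, beside 6.74% of genes higher and 7.72% lower, and at 100 mM 0 were called, beside 0.845% and 0.288%. With the replicate block, 4 members were called higher for the average, beside 16.5% of tested genes. At 10 mM 3 were then higher and 3 lower, beside 12.5% and 13.5%, and at 100 mM 1 was higher, beside 4.68%. The 95% interval of the average auxin effect lay within 0.4 of 0 for 2 members and within 1 of 0 for 59, in the fit without the block. The choice set the centre of these intervals near 0, so they show only their width, which had a median of 1.10.

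The choice was repeated on 2 harvest dates at a time, and the third date was then read as libraries that the choice had not used. The fall with sucrose was largely seen again. Of the 112 genes chosen without June, 106 had a sucrose difference below 0 in June and 66 (58.9%) were at -0.8 or lower, beside 5.67% of level-range genes. Of the 35 chosen without August, all 35 were below 0 and 28 were at -0.8 or lower, beside 6% of genes. Of the 108 chosen without October, 103 were below 0 and 44 (40.7%) at -0.8 or lower, beside 4.08%. The median sucrose difference on the date left out was -0.87, -1.17 and -0.70.

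Flatness for auxin carried over less. On the date left out, the auxin difference was within 0.4 of 0 for 42 of 112 genes in June (37.5%, beside 55.3% of level-range genes). It was within 0.4 for 17 of 35 in August (48.6%, beside 55.9%) and for 54 of 108 in October (beside 70.7%). Each share was below that of the level range. The level range was not chosen on sucrose, however, and is not a matched background. Of the 688 genes lowered by sucrose, 11.3% had a mean auxin difference over all dates within 0.4 of 0. The genes outside the limit, set at 0.4 on each side, were mostly higher with auxin in June (59 against 11) and October (45 against 9) and mostly lower in August (13 against 5). The median auxin difference on the date left out was 0.42 in June, -0.15 in August and 0.32 in October. Of the 78 members, 56, 27 and 58 were among the genes chosen without June, August and October.

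**Figure D4:**
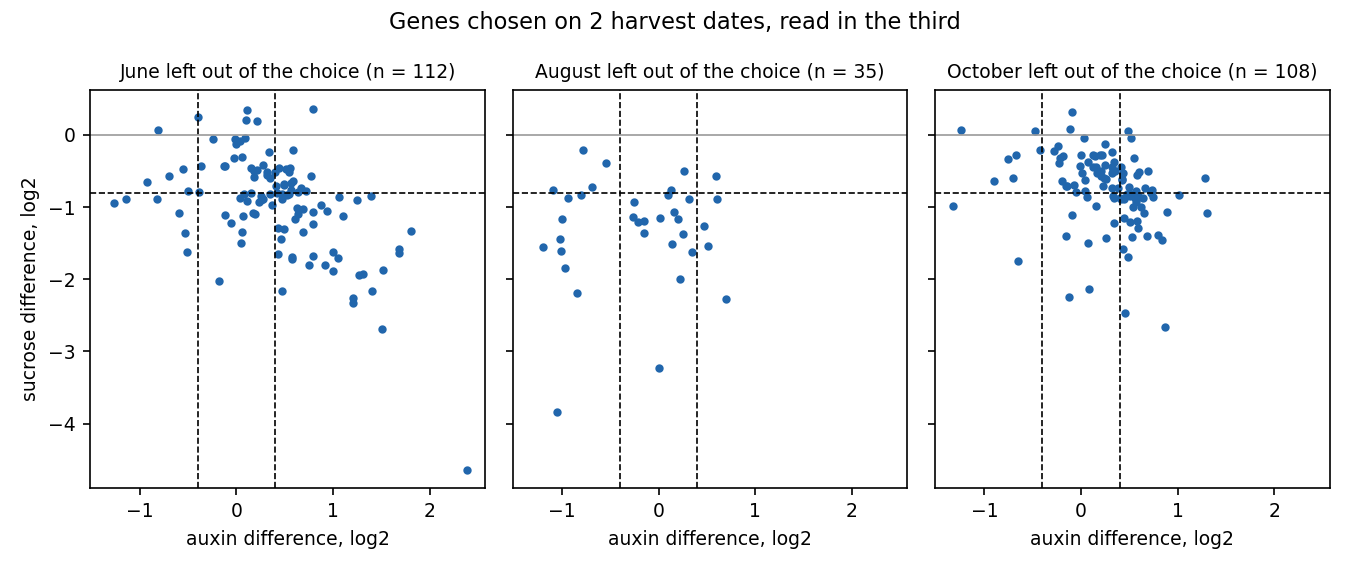
Sucrose difference (vertical axis, log2) against auxin difference (horizontal axis, log2) on the harvest date that the choice did not use, with 1 point per gene and 1 panel per date. Dashed lines mark -0.8 for sucrose and 0.4 on each side of 0 for auxin. Nearly all points lie below 0 on the sucrose axis, and many lie outside the auxin limits, mostly to the right in June and October and to the left in August.

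The choice paired libraries by replicate set and set no direct condition on differences between the sets, but it was not independent of them. A low value in a library with auxin at the higher sucrose dose lowers both the sucrose and the auxin difference. Most genes lowered by sucrose lay above the auxin limit, so the choice favours genes low in such a library. All tested genes are thus not a matched background for the harvest counts below. Members differed between the sets. A harvest date coincides with a replicate number, so date and any other feature of a set cannot be told apart. With treatment in the model, edgeR called 9 members lower in August than in June (11.5%, beside 0.676% of all tested genes) and 0 higher (beside 0.581%). It called 10 lower in October than in June (12.8%, beside 2.4%) and 2 higher (beside 2.1%). The median harvest effect over members was -0.40 for August and -0.23 for October, against 0.01 and 0.00 over all tested genes, and 60 and 61 of the 78 members were below 0. At an unadjusted p under 0.05, 33 members were lower in August (42.3%, beside 9.56%) and 21 lower in October (26.9%, beside 10.9%). The August and October comparisons share the June libraries, and each date is a single harvest.

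The August difference was uneven between treatments. Its median over members was 0.00 at 10 mM sucrose alone, -0.42 at 10 mM with auxin, -0.26 at 100 mM alone and -0.83 at 100 mM with auxin, where 67 of 78 members were lower in August. Over the level range these medians lay between 0.00 and 0.03. The October medians were -0.35, -0.31, -0.04 and -0.22 in the same order. The August library of 100 mM with auxin held the lowest value among the 100 mM libraries in 34 members (43.6%), against 17.6% of level-range genes. Likewise, the June library of 10 mM with auxin held the highest value among the 10 mM libraries in 35 members (44.9%), against 23.2%. The choice favours low values at 100 mM with auxin. It also demanded a fall from 10 mM to 100 mM in pairs that include both of these libraries. The level range is therefore not a matched background for either share. Without the August library of 100 mM with auxin, 0 members and 0 of all genes were called lower in August, and the median was -0.27. Without the June library of 10 mM with auxin 9 members were called, and the median was -0.36. The August count was 3 without replicate 1 of 10 mM alone or replicate 2 of 10 mM with auxin, 4 without replicate 1 of 100 mM alone, and 1 and 5 without replicates 1 and 3 of 100 mM with auxin. The October count was 4 without replicate 3 of 10 mM alone or replicate 1 of 100 mM with auxin, 6 without replicate 3 of 10 mM with auxin and 3 without replicate 3 of 100 mM with auxin.

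**Figure D5:**
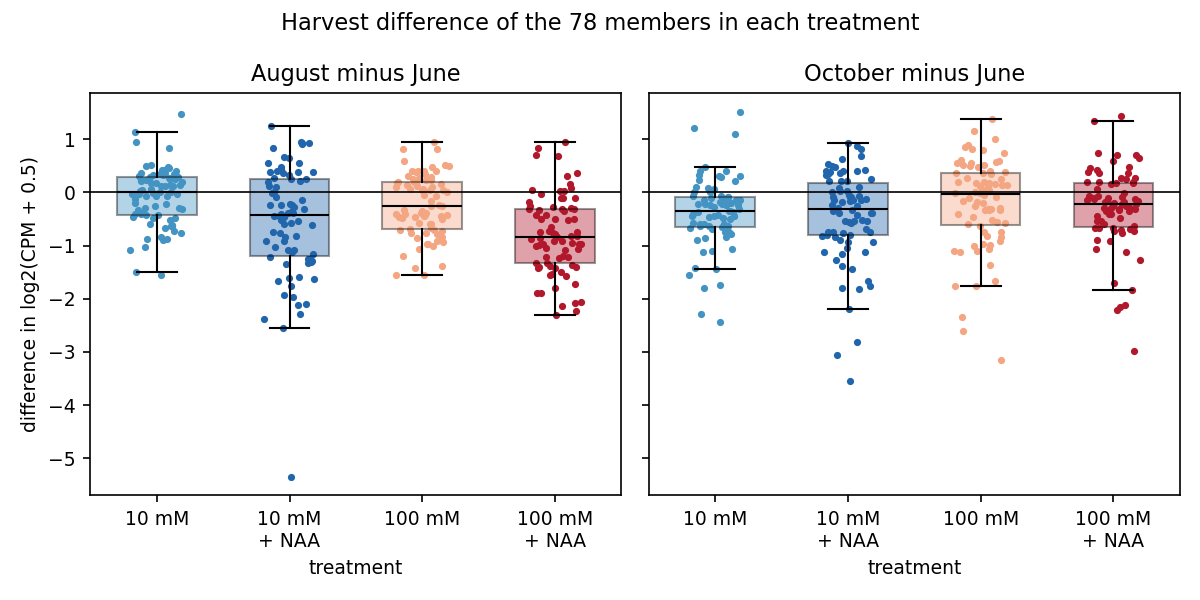
August minus June and October minus June difference in log2(CPM + 0.5) of the 78 members within each treatment, with points for genes and boxes for quartiles and median (whiskers reach at most 1.5 times the box height). The August medians run from 0.00 at 10 mM alone to -0.83 at 100 mM with NAA, and the October medians from -0.35 to -0.04.

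The called members with the largest October changes changed the same way in every treatment. They were picked from a fit with a common date effect for all treatments, which favours such genes. For gene:RC7G0263500 the levels in June, August and October were 89.6, 30.4 and 16.2 CPM at 10 mM alone and 123.2, 90.6 and 14.4 CPM with auxin. At 100 mM they were 29.6, 11.1 and 2.87 CPM alone and 33.8, 9.83 and 3.86 CPM with auxin. Each treatment held its highest level in June and its lowest in October. October against June was -2.96 (SE 0.264, edgeR adjusted p = 0.000798).

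A second steep fall was that of gene:RC7G0200900, with 296.3, 145.1 and 84.6 CPM in date order at 10 mM alone and 763.5, 176.0 and 108.5 CPM with auxin. At 100 mM it held 155.3, 85.5 and 45.4 CPM alone and 134.7, 57.1 and 28.6 CPM with auxin. October against June was -2.18 (SE 0.2, edgeR adjusted p = 0.00083) and was called without each library in turn, the high June library with auxin included.

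The 2 members higher in October were gene:RC3G0146600, described above, at 1.05 (SE 0.172, edgeR adjusted p = 0.0118), and gene:RC3G0044600 at 0.68 (SE 0.159, edgeR adjusted p = 0.0371). At 10 mM gene:RC3G0044600 stood in date order at 22.8, 29.2 and 28.2 CPM alone and at 14.6, 19.1 and 27.0 CPM with auxin. At 100 mM it stood at 7.48, 9.97 and 17.3 CPM alone and at 12.5, 13.9 and 16.3 CPM with auxin. The October library was above the June library in each treatment. Its call was lost without any 1 of 8 libraries (edgeR adjusted p up to 0.123), and that of gene:RC3G0146600 without replicate 1 or 3 of 100 mM with auxin (0.06 and 0.0701).

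Between August and October 2 members were called higher in October (beside 1.03% of tested genes) and 3 lower (beside 1.96%). The higher ones were gene:RC3G0146600 at 0.78 (edgeR adjusted p = 0.0346) and gene:RC5G0303400 at 0.90 (edgeR adjusted p = 0.0399). Among the lower ones were gene:RC7G0263500 at -1.71 (edgeR adjusted p = 0.00942) and gene:RC7G0200900 at -0.85 (edgeR adjusted p = 0.0399). These were named after their values were seen. The median over members was 0.09, against 0.01 over all tested genes.

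The genes lowered by sucrose and raised by auxin are given here for their harvest values, without a test of the difference. These 419 genes met the same level and sucrose conditions and had a mean auxin difference of at least 0.8 with all 6 above 0. In August 10 of them (2.39%) were called lower than in June, against 9 of the 78 members, and their median was -0.05. At 100 mM with auxin, though, their median August difference was -0.58 with 80.2% of them lower, beside -0.83 and 85.9% of the members. In October 104 (24.8%) were called lower, against 10 of 78, with a median of -0.63. The 83 genes that sucrose raised with a flat auxin average had 5 called lower in August and 10 in October, with medians of -0.13 and 0.01.

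The reads of the members lay mostly on the strand that the libraries mark for transcripts. The forward-strand share had a median of 0.184%, against 0.151% over the level range, and was above 5% in 6 members (7.69%, against 2.06% of the level range). In gene:RC7G0145200 it was 92.6%. The counts used for this gene were thus the minor part of its reads. They gave 4.21 ± 0.900 CPM without and 6.39 ± 2.96 with auxin at 10 mM, and 2.88 ± 0.887 without and 2.52 ± 0.908 with it at 100 mM (SD, n = 3). The next highest share was 16.3%, in gene:RC2G0137800, which was called lower in both August (-0.85, SE 0.136, edgeR adjusted p = 0.0216) and October (-0.74, SE 0.137, edgeR adjusted p = 0.0175) than in June. The source of the forward reads was not tested.

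The members were scattered over the gene list. Only 1 pair stood on directly following rows, gene:RC0G0013800 and gene:RC0G0013900, with mean sucrose differences of -1.17 and -1.11 and mean auxin differences of 0.24 and 0.15. Their auxin differences had the same sign in each of the 6 pairs, with 1.19 and 1.12 in June and -0.92 and -1.04 in August at 10 mM. The 419 genes raised by auxin held 25 such pairs and the 83 raised by sucrose 1. The files give no coordinates, so following rows are not shown to be neighbours in the genome. Reads that mapped to several places had their own summary row, with 3.15% to 5.44% of reads per library, outside the gene counts. How such reads were defined is not stated, so counts of near-identical copies are uncertain.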

How the data were processed

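Messenger RNA was sequenced from 12 rose bud libraries in 4 groups, polyA-selected, stranded and paired-end per the labels' protocols. The authors deposited raw read counts per gene, not normalised, in 3 columns per library (strand ignored, forward, reverse) per the file headers. TopHat2 and Bowtie2 are named in the submitters' processing notes; their versions and role, the settings, the genome build and the annotation are not given here by any source. Analyses took the reverse column, because forward-strand counts were 3.37% to 5.00% of the sum of both. The 4 summary rows, holding 17.3% to 23.2% of reads, were left out.

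Levels are CPM on TMM-scaled library sizes. Genes passing filterByExpr (minimum count 10, minimum total 15) were fitted in edgeR 4.0.16 (R 4.3.3) by the quasi-likelihood method, with 1 mean per group, or with group and harvest date for the harvest tests, and p-values were adjusted by Benjamini-Hochberg over all 24267 tested genes. DESeq2 1.42.0, other scalings, filters, limits and left-out libraries were alternatives. Scripts were tested on simulated data. Each SD is over 3 libraries from 3 harvests and so includes the spread between dates.

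Replicate numbers pair libraries, because the labels give each number 1 harvest date. The mean correlation of libraries' deviations from their group mean was 0.298 for the 18 pairs sharing a number and -0.149 for the other 36. Deviations within a group cancel out, so the negative value follows largely from the positive one and is not separate support. The members and the comparison lists were chosen with earlier results of these data known. Named genes were taken by rule: the 2 steepest, the 2 most abundant, those nearest to the sucrose limit, the 2 with the smallest interaction p in each direction, the 2 called with the largest October change in each direction, the 2 with the highest forward share and the 2 with the widest gap between doses. The planned gene lists, cell markers and promoter motifs were not used, as no table here pairs these IDs with names or sequences.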

Additional observations from a re-analysis of the deposited data

Results flagged for a closer look

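In 3 members the 3 auxin differences at 10 mM sucrose all had one sign and the 3 at 100 mM all had the other. That is 3.85% of members, against 1.35% of level-range genes. The choice kept the mean of these same differences small, which favours genes whose differences at 10 mM and 100 mM cancel. The level range had no such limit and is not a matched background, so nothing is read from the higher share. The auxin effect at 100 mM minus that at 10 mM was 1.52 for gene:RC3G0146600 (SE 0.584), -0.75 for gene:RC7G0145200 (SE 0.549) and -1.37 for gene:RC7G0200900 (SE 1.07). In the edgeR interaction test none of the 3 was called (adjusted p = 0.963 for each). Most reads of gene:RC7G0145200 lay on the other strand, and gene:RC7G0200900 was at 763.5 CPM in the June library of 10 mM with auxin, which stood apart. Without that library the interaction of gene:RC7G0200900 was -0.09, and with strand ignored that of gene:RC7G0145200 was -0.58.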

How the results depend on the processing

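The number of members was 50 with an auxin limit of 0.3 and 35 without August, 27 of which were members. It ran from 35 to 112 with a date left out and from 57 to 109 with a library left out, of which 50 to 67 were members. Under the other scalings, offsets, strand column and limits it was 53 to 115. With the replicate block, 53 and 62 members were called lower with sucrose without and with auxin, 4 higher with auxin on average, 3 higher and 3 lower with auxin at 10 mM and 1 higher at 100 mM. By DESeq2 the first 2 counts were 44 and 50 (671 and 1314 over all genes of that fit). It called 3 higher with auxin on average (3498 over all genes) and 1 at 10 mM (2436). DESeq2 called 17 members lower and 2 higher in August than in June, beside 635 and 374 over all genes. In edgeR the August counts over all genes were 164 and 141. DESeq2 called 5 members lower in October than in August, beside 766 over all genes, against 476 over all genes in edgeR. Without the low-count filter, 34 were lower with sucrose without auxin (377 over all genes) and 0 higher with auxin on average (2673). In August 15 were then lower (291 over all genes) and 1 higher (278). With strand ignored, 2 were higher with auxin on average (3051 over all genes) and 1 at 10 mM (1663). With a library or date left out, the sucrose counts ran from 6 to 68 on average, 0 to 29 without auxin and 0 to 33 with it. Auxin counts ran from 0 to 5 on average and 0 to 1 at 10 mM. Counts lower in August were 0 to 11 and higher 0 to 1, those lower in October 3 to 11 and higher 0 to 2, and October against August gave 0 to 5 higher and 1 to 5 lower. The auxin effect in August gave 0 to 1. Calls over all genes also changed between settings, so none of these changes in count is read as a trait of the members. The interaction of gene:RC3G0210100 was -3.34 to 0.0304 with a library left out, changing sign without replicate 1 of 10 mM with auxin. No other sign changed among the other 6 interactions and 4 October effects recomputed for named genes, and the replicate block moved no other count by over 1.5 times. The causes were not tested. Counting depth limits the low members most, down to 304 counts over 12 libraries.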
